A study of Mus musculus with 15 samples.

Results

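The early salivary glands of ICR mouse embryos were examined as 2 tissue layers, the epithelium and the mesenchyme, in the submandibular gland (SMG) at embryonic day 11.5 and in the parotid gland (PG), taken slightly later, at embryonic day 12. The difference between the layers within a gland was compared between the 2 glands for every gene. All 15 RNA-seq libraries of the series entered: 4 of SMG epithelium, 4 of SMG mesenchyme, 3 of PG epithelium and 4 of PG mesenchyme. The labels name no transgene and no treatment for any group, and how the layers were separated is not given in the sources used here. Of 48709 genes in the count table, 18940 had enough counts to be tested, and the 92 rows of ERCC spike-in RNA were left out. Each gland was sampled on its own embryonic day, so a difference between glands cannot be told apart from one between days.

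A salivary gland starts as a thickening of the oral epithelium that grows as a bud into condensing mesenchyme. Signals pass both ways between the layers: FGF ligands from the mesenchyme drive growth and branching of the bud, and epithelial WNT, Hedgehog and ectodysplasin ligands act in the bud and its surroundings. The SMG bud lies beside the tongue in the floor of the mouth and the PG bud grows from the cheek, so the mesenchyme around each carries the patterning genes of a different part of the face. A gene that is epithelial in one gland and mesenchymal in the other, called a switch gene here, is therefore a different kind of gland difference from one that is simply higher in a gland.

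The layers carried the markers of their labels. All 43 genes of an epithelial identity list (cadherin 1, Epcam, Esrp1 and others) were called higher in the epithelium in both glands, against 25.2% of all genes tested in SMG and 21.9% in PG. Of 38 mesenchymal identity genes, 36 in SMG and 37 in PG were called lower in the epithelium, against 26.7 and 24.2% of all genes. Total gene counts were 20561142 to 29552734 per library, and log2 CPM (read counts scaled to a common library total) of replicates correlated at r = 0.966 to 0.986. For each library the share of the other layer was estimated as the median, over the identity genes of the other layer, of the library's CPM divided by the mean in the gland's other layer. It was 0.153 to 0.581% in SMG mesenchyme and 1.30 to 1.58% in 3 libraries of SMG epithelium, with 5.22% in replicate 3. In PG epithelium it was 1.48 and 1.73%, with 6.34% in replicate 2. In PG mesenchyme it was 3.19 to 4.09%, with 17.5% in replicate 1. Each library of PG mesenchyme therefore held more epithelial signal than any library of SMG mesenchyme. Results that this touches are given also with the share subtracted, or without the libraries concerned. The subtraction left some groups with no more than 3 counts (Pax1 went from 68 to 0 in PG epithelium), where a fitted log2 value depends on the small count added before taking logs, so for such genes the call is given without a size.

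The interaction was the PG layer difference minus the SMG layer difference, each as log2 of epithelium over mesenchyme, so that a negative value is a shift towards the mesenchyme in PG. It was called for 2705 genes, 14.3% of those tested (edgeR's quasi-likelihood test, adjusted p under 0.05). Of these, 1130 (5.97%) were higher and 1575 (8.32%) lower, and 1734 (9.16%) had an absolute log2 value of at least 1. Most called genes did not have called layer differences of opposite sign in SMG and PG. A missing layer call in a gland does not show that the layer stayed the same. In the lower direction 452 genes were epithelial in both glands with a smaller difference in PG, 451 were epithelial in SMG with no call in PG, 319 were mesenchymal in PG with no call in SMG, and 179 were mesenchymal in both. In the higher direction 431 were mesenchymal in SMG with no call in PG, 290 were mesenchymal in both, 218 were epithelial in PG with no call in SMG, and 75 were epithelial in both. More of the calls between glands lay in the mesenchyme. That comparison had 4 libraries in each gland, whereas PG epithelium had 3, so a missing call between the epithelia need not mean equal levels. Of the 1575 lower genes 943 (59.9%) were called higher in PG than in SMG mesenchyme with no call between the epithelia, and 274 were called lower in PG epithelium alone. Over all genes tested 15.3% were called higher and 9.43% lower in PG than in SMG mesenchyme, and 7.07% higher and 4.66% lower between the epithelia. Of the 1130 higher genes 558 (49.4%) were called lower in PG mesenchyme alone and 322 higher in PG epithelium alone. With the other layer's share subtracted a gland call in the mesenchyme alone was made for 810 of 1448 lower genes (55.9%) and 665 of 1409 higher ones (47.2%). Of the 43 epithelial identity genes 36 were called higher in PG than in SMG mesenchyme, which moves with the epithelial shares above, and the part of these shares in the other calls was not tested further.

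Switch genes were those with the interaction called and both layer differences called with opposite signs. A layer difference was called in both glands for 6614 genes (34.9% of those tested), and 272 of the genes tested (1.44%) were switch genes. In 165 (0.871%) the gene was epithelial in SMG and mesenchymal in PG, and in 107 (0.565%) it was mesenchymal in SMG and epithelial in PG. The SMG and PG layer differences come from separate libraries, and across 12554 genes with a mean of at least 5 CPM in a group they correlated at r = 0.814. Many switches were small: 58 of the 165 (0.306% of genes tested) and 51 of the 107 (0.269%) had an absolute log2 difference of at least 1 in both glands, 0.576% together. Removing each of the 15 libraries in turn, 80 of the 165 and 55 of the 107 were called every time. Without PG epithelium replicate 2 and PG mesenchyme replicate 1, 123 and 82 of them were still switch genes, and 107 and 85 when SMG epithelium replicate 3 was removed as well. With the other layer's share subtracted 150 and 99 were. In 127 of the 165 and 73 of the 107 no library overlapped between the layers of either gland. Switch genes were selected for called layer differences in both glands, so this separation follows in part from the selection. Exon bases are shared with another gene in 39 and 26 of them. No share over all genes tested is given beside these counts.

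**Figure D1:**
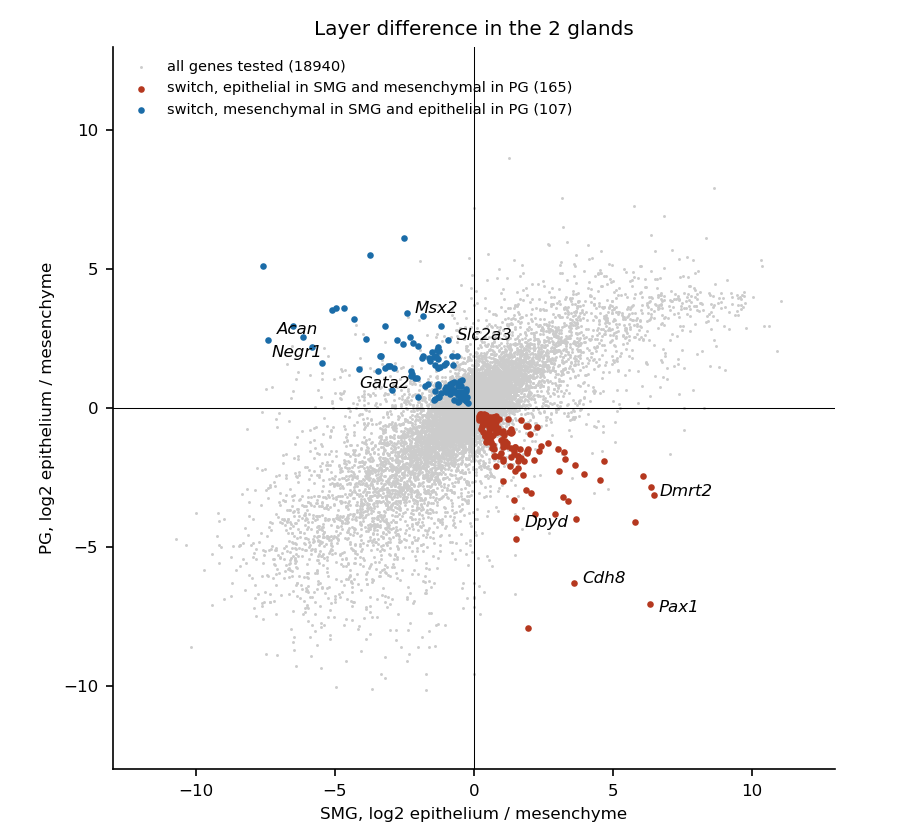
Log2 ratio of epithelium to mesenchyme in SMG (x axis) and in PG (y axis) for the 18940 genes tested (grey), as fitted by edgeR. The 165 genes in red lie at the lower right (epithelial in SMG, mesenchymal in PG) and the 107 in blue at the upper left, while most genes lie along the diagonal (r = 0.814 over 12554 genes).

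Among the genes that were epithelial in SMG and mesenchymal in PG, several were transcription factors. Pax1, a paired-box factor known from the pharyngeal pouches and the sclerotome (chr2:147361925-147393295, plus strand, GRCm38), had 6.71, 9.27, 9.67 and 12.7 CPM in SMG epithelium. It had 0.251, 0.115, 0.0862 and 0 CPM in SMG mesenchyme. In PG epithelium the values were 0.0833, 2.49 and 0.0763 CPM, and in PG mesenchyme 2.76, 120, 130 and 219 CPM. The layers did not overlap in either gland, although PG mesenchyme replicate 1 was far below the other 3 libraries. The SMG layer difference was 6.35 ± 1.49 (log2 ± SE, adjusted p = 0.00304), the PG difference −7.04 ± 1.33 (adjusted p = 0.00083) and the interaction −13.39 ± 1.98 (adjusted p = 0.000686). The interaction was called also with the other layer's share subtracted (adjusted p = 0.000444). Pax1 shares exon bases with AI646519 on the opposite strand, and these libraries do not mark the strand.

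Dmrt2, a doublesex-related factor of the early somite (chr19:25672411-25678991), was measured at 31.8, 52.6, 32.7 and 40.1 CPM in SMG epithelium against 0.23 to 0.67 CPM in SMG mesenchyme. In PG it was at 0.375, 2.95 and 2.02 CPM in the epithelium and 14.3, 11.6, 15.9 and 9.97 CPM in the mesenchyme. The 2 glands thus had opposite orders with no overlap, and the interaction was −9.21 ± 0.67 (adjusted p = 1.07e-06). Eya1, a transcriptional coactivator that works with sine oculis homeobox proteins, was less polar. It had 12.7, 15.2, 10.4 and 11.5 CPM in SMG epithelium and 4.98, 4.80, 4.61 and 9.88 CPM in SMG mesenchyme. It had 16, 13.8 and 15.3 CPM in PG epithelium and 29.6, 63.9, 50.7 and 79.6 CPM in PG mesenchyme. The epithelia of the 2 glands were close for Eya1 (PG minus SMG 0.27, adjusted p = 0.637), so its switch lay in the mesenchyme, where PG was higher by 3.20 on the log2 scale (adjusted p = 3.15e-06). The FGF-responsive factor Etv1 (interaction −2.25 ± 0.29, adjusted p = 0.000107) and Hes6, a hairy-related factor of differentiating neurons and muscle (−1.67 ± 0.21, adjusted p = 8.98e-05), switched in the same direction.

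Signalling adaptors and enzymes made up another set in this direction. Dpyd, which encodes dihydropyrimidine dehydrogenase, the first enzyme of pyrimidine breakdown, had very even replicates. It had 17.0, 16.6, 17.0 and 16.5 CPM in SMG epithelium, 6.62, 5.30, 5.04 and 6.65 CPM in SMG mesenchyme, and 4.58, 3.19 and 4.81 CPM in PG epithelium. PG mesenchyme stood at 72.4, 61.2, 62.8 and 66.7 CPM, above every other library. The SMG difference was 1.51 and the PG difference −3.97, and the interaction was −5.48 ± 0.20 (adjusted p = 5.94e-10).

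Hpgd, the enzyme that inactivates prostaglandins, ran from 75.4 to 137 CPM in SMG epithelium and 8.34 to 17.1 CPM in SMG mesenchyme. In PG it ran from 6.22 to 7.73 CPM in the epithelium and 16.9 to 45.2 CPM in the mesenchyme (interaction −5.33 ± 0.43, adjusted p = 3.68e-06). Dok5, an adaptor of receptor tyrosine kinases, went from 43.1 to 50.5 CPM in SMG epithelium and 0.615 to 3.06 CPM in SMG mesenchyme to 2.12, 8.43 and 4.77 CPM in PG epithelium and 12.5 to 24.2 CPM in PG mesenchyme (−6.61 ± 0.63, adjusted p = 1.41e-05). Ddc, the decarboxylase that makes dopamine and serotonin, differed mainly between the epithelia. It had 75.5, 92.2, 57.9 and 73.3 CPM in SMG epithelium and 5.71, 4.12 and 3.13 CPM in PG epithelium. In the mesenchyme it had 17.5 to 29.2 CPM in SMG and 14.2 to 18.6 CPM in PG, with no call between them (−0.41, adjusted p = 0.147). The interaction of Ddc was −3.70 ± 0.30 (adjusted p = 2.39e-06).

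Adhesion and guidance genes were also present. Cdh8, a type II cadherin of the nervous system, had 22.2, 25.8, 19.6 and 16.1 CPM in PG mesenchyme and at most 0.505 CPM in PG epithelium. In SMG it was near the limit of detection, with 48 counts over the epithelial libraries and 3 over the mesenchymal ones, a CPM ratio of 14.1 (95% counting interval 4.54 to 70.7). Its interaction was −9.91 ± 0.93 (adjusted p = 7.73e-06), it was called also with the other layer's share subtracted (adjusted p = 4.45e-07), and Cdh8 shares exon bases with Gm15679 on the opposite strand. Another type II cadherin, Cdh12, switched with −6.03 ± 0.74 (adjusted p = 6.94e-05). Efna5, an ephrin ligand (−2.5 ± 0.20, adjusted p = 1.36e-06), Sema5a, a semaphorin (−2.5 ± 0.19, adjusted p = 1.25e-06), and Cnr1, the cannabinoid receptor of neurons (−3.75 ± 0.40, adjusted p = 2.03e-05), did so too. Dkk3, a secreted member of the dickkopf family, moved from a layer difference of 1.34 in SMG to −1.75 in PG (interaction −3.09 ± 0.23, adjusted p = 1.07e-06). Each of these genes kept its switch call without each library in turn.

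**Figure D2:**
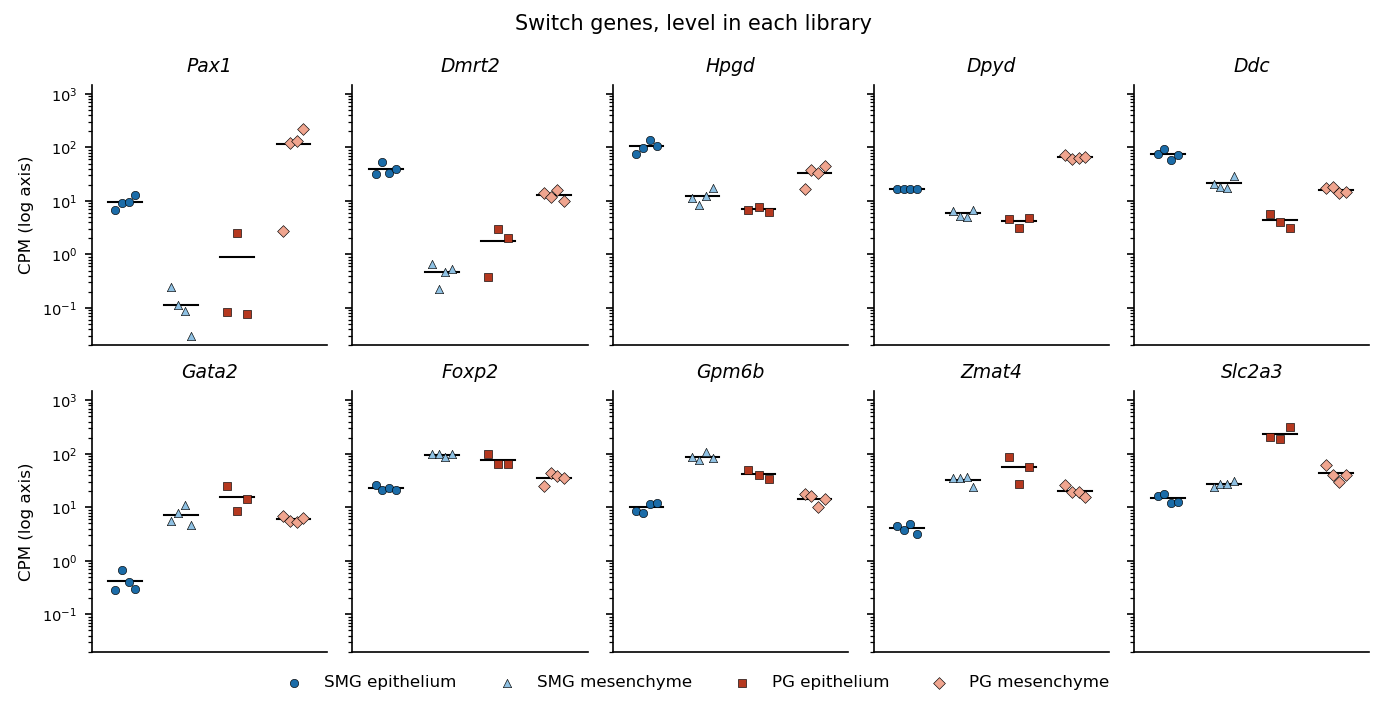
CPM of 10 switch genes in each of the 15 libraries (points, log axis) with the group mean (bar). Values below 0.03 CPM, including 0, are drawn at 0.03. In the upper row SMG epithelium exceeded SMG mesenchyme and PG mesenchyme exceeded PG epithelium, and in the lower row both orders were reversed.

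The opposite switch, mesenchymal in SMG and epithelial in PG, also included transcription factors. Gata2, a zinc finger factor (chr6:88193891-88207032), had 0.286, 0.66, 0.403 and 0.296 CPM in SMG epithelium and 5.57, 7.91, 11.0 and 4.76 CPM in SMG mesenchyme. In PG it had 25, 8.39 and 14.4 CPM in the epithelium and 6.98, 5.67, 5.21 and 6.24 CPM in the mesenchyme. The mesenchymes of the 2 glands were close (−0.28, adjusted p = 0.594) and the change lay in the epithelium, where PG was higher by 5.26 on the log2 scale (adjusted p = 1.6e-06). The interaction was 5.53 ± 0.53 (adjusted p = 8.6e-06). Foxp2, a forkhead repressor (chr6:14901349-15441977), differed in both layers. Its values were 26.3, 21.3, 23.4 and 20.9 CPM in SMG epithelium and 97.2, 98.0, 86.0 and 97.1 CPM in SMG mesenchyme. They were 98.5, 65.0 and 64.3 CPM in PG epithelium and 24.9, 44.6, 37.8 and 35.2 CPM in PG mesenchyme. No library overlapped between the layers of a gland, and the interaction of Foxp2 was 3.13 ± 0.24 (adjusted p = 1.07e-06).

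Msx2, a homeobox factor and BMP target, was the least secure of the 3. PG epithelium had 3.21, 36.6 and 19.5 CPM and PG mesenchyme 1.18, 0.466, 0.999 and 4.84 CPM, so the lowest epithelial library lay within the mesenchymal range. SMG epithelium had 0.536, 0.0695, 0.366 and 0.333 CPM and SMG mesenchyme 2.14, 0.807, 2.24 and 1.9 CPM. The interaction was 5.84 ± 1.17 (adjusted p = 0.00414), but the SMG difference (−2.42, adjusted p = 0.0302) missed the threshold when SMG epithelium replicate 2, 3 or 4 or SMG mesenchyme replicate 1, 3 or 4 was removed. The value was then −2.48 to −2.09 and the adjusted p 0.0547 to 0.0779. It missed the threshold also with the other layer's share subtracted (−2.68, adjusted p = 0.0919).

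Membrane, matrix and transport genes switched the same way. Gpm6b, a membrane proteolipid of neurons and glia, was at 8.64, 7.81, 11.7 and 12.2 CPM in SMG epithelium and 86.0, 75.3, 106 and 82.4 CPM in SMG mesenchyme. It was at 49.7, 40.0 and 34.0 CPM in PG epithelium and 17.6, 16, 10.3 and 14.2 CPM in PG mesenchyme (interaction 4.62 ± 0.27, adjusted p = 1.22e-07). Zmat4, a zinc finger gene, had 3.21 to 4.80 CPM in SMG epithelium and 24.2 to 37.1 CPM in SMG mesenchyme, and 87.7, 26.8 and 55.5 CPM in PG epithelium against 15.8 to 25.8 CPM in PG mesenchyme (4.53 ± 0.42, adjusted p = 9.03e-06). Rhbdl3, a rhomboid-like membrane protein, had 12.7, 46.6 and 47.0 CPM in PG epithelium and at most 14.0 CPM in any other library (4.25 ± 0.51, adjusted p = 6.75e-05). In these 3 genes the layers separated in each gland.

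Slc2a3, the neuronal glucose transporter GLUT3 (chr6:122727809-122801640, minus strand), had the highest level in PG epithelium, at 202, 192 and 313 CPM. PG mesenchyme had 62.7, 40.8, 29.9 and 39.9 CPM, SMG mesenchyme 24.3, 27.7, 27.5 and 31.4 CPM, and SMG epithelium 16.3, 17.5, 12 and 12.8 CPM. The SMG difference was small (−0.92 ± 0.21, adjusted p = 0.00201) and the PG difference was 2.45 ± 0.23 (adjusted p = 8.83e-07). Col12a1, a collagen that sits on the surface of collagen fibrils, was mesenchymal in SMG, with 12.8 to 14.6 CPM in the epithelium and 90.6 to 131 CPM in the mesenchyme. In PG it was modestly epithelial, with 98.1, 154 and 121 CPM against 70.6 to 88.1 CPM (interaction 3.61 ± 0.20, adjusted p = 9.81e-08).

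Acan, the cartilage proteoglycan aggrecan, combined a switch with confinement. SMG mesenchyme had 22.5, 34.1, 48.4 and 8.02 CPM, and the next highest library was PG epithelium replicate 1 with 1.17 CPM. The PG difference (2.44 ± 0.77, adjusted p = 0.0175) rested on levels of 0.428 to 1.17 CPM against 0.0439 to 0.29 CPM and missed the threshold without PG epithelium replicate 1 (2.05, adjusted p = 0.0817) or PG mesenchyme replicate 2 (2.22, adjusted p = 0.0518). The interaction of 9.84 ± 0.98 (adjusted p = 1.56e-05) was called in each of these fits, and also with the other layer's share subtracted (adjusted p = 3.43e-05). Negr1, a neuronal adhesion molecule, had a similar shape (interaction 7.10 ± 0.83, adjusted p = 9.66e-05). Its PG difference of 1.63 was lost without any of 5 PG libraries, among them epithelium replicate 2 (0.96, adjusted p = 0.215), with an adjusted p of 0.053 to 0.0827 for the other 4.

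Smaller switches to the epithelium in PG were found among receptors and ligands. Rarb, a retinoic acid receptor (2.16 ± 0.23, adjusted p = 2.03e-05), Ntf3, a neurotrophin (1.36 ± 0.16, adjusted p = 5.07e-05), Boc, a Hedgehog coreceptor (0.99 ± 0.14, adjusted p = 0.00022), and Wnt5b, a non-canonical WNT ligand (1.36 ± 0.22, adjusted p = 0.000596), were such genes. Lamb1, a laminin chain of the basement membrane (1.75 ± 0.25, adjusted p = 0.000273), and Itga2, a collagen-binding integrin chain (2.94 ± 0.32, adjusted p = 2.49e-05), switched as well. None of these 6 lost its switch call without any single library. Rarb shares exon bases with Top2b on the opposite strand.

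Genes of cholesterol synthesis shifted together towards the PG mesenchyme. The pathway turns acetyl-CoA into mevalonate and then squalene, lanosterol and cholesterol, and the factor SREBP2 (gene Srebf2) switches on its enzymes when membrane sterol is low. All 24 genes of the list were tested: 18 were called lower in the interaction and 0 higher, against 8.32 and 5.97% of all genes. The median interaction was −0.748 on the log2 scale, beside −0.0168 over all genes tested. Of the 24 genes, 14 were called epithelial and 3 mesenchymal in SMG, whereas 1 was called epithelial and 13 mesenchymal in PG. Over all genes tested the shares were 25.2 and 26.7% in SMG and 21.9 and 24.2% in PG. Between glands 18 were called higher in PG than SMG mesenchyme, against 15.3% of all genes tested. In the epithelium 2 were called lower in PG than SMG, near the 4.66% of all genes tested. With the other layer's share subtracted the counts were again 18 and 0 (median −0.765). Without PG epithelium replicate 2 and PG mesenchyme replicate 1 they were 16 and 0 (median −0.832).

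Along the pathway the shifts were of similar size. Hmgcs1, which makes the mevalonate precursor HMG-CoA, had 405, 425, 410 and 404 CPM in SMG epithelium and 243, 256, 273 and 285 CPM in SMG mesenchyme. In PG it had 313, 374 and 357 CPM in the epithelium and 338, 392, 344 and 442 CPM in the mesenchyme, which overlap (interaction −0.76 ± 0.13, adjusted p = 0.00102). Of the mevalonate enzymes, Mvk gave −0.77 ± 0.17 (adjusted p = 0.00544) and Mvd −0.87 ± 0.18 (adjusted p = 0.00437). Idi1 gave −0.88 ± 0.19 (adjusted p = 0.00483) and Fdps, which makes farnesyl diphosphate, −1.14 ± 0.23 (adjusted p = 0.003). The squalene and lanosterol steps Fdft1 (−0.70), Sqle (−0.64), Lss (−0.89) and Cyp51 (−0.74) were called too, as were the later steps Msmo1 (−1.04), Nsdhl (−0.67) and Dhcr7 (−0.95). The sterol sensor partner Insig1 (−0.81) and Srebf2 itself (−0.63) were also called. Of the 18 calls, 15 were made without each library in turn, and that of Insig1 was among those that were not.

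Fdps, Msmo1, Dhcr7, Fdft1, Nsdhl and Srebf2 were switch genes, epithelial in SMG and mesenchymal in PG. Nsdhl had 42.6, 49.4, 49.2 and 48.0 CPM in SMG epithelium against 34.3 to 38 CPM in SMG mesenchyme, and 38.7, 42.1 and 42.1 CPM in PG epithelium against 46.3 to 53.8 CPM in PG mesenchyme. The layers did not overlap in either gland, but each difference was under 1.5-fold (0.41 and −0.26 on the log2 scale). The switch call of each of the 6 was lost without at least 1 library. For Nsdhl this was PG epithelium replicate 1 (PG difference −0.22, adjusted p = 0.0938), and for Fdps PG epithelium replicate 3 (−0.45, adjusted p = 0.0765). For Fdft1 it was PG epithelium replicate 3 (−0.28, adjusted p = 0.0763) and PG mesenchyme replicate 2 (−0.25, adjusted p = 0.0573). For Srebf2 it was PG epithelium replicates 1 and 3 and PG mesenchyme replicate 1 (−0.25 to −0.21, adjusted p 0.0734 to 0.133). For Dhcr7 it was PG epithelium replicates 1 and 3 and PG mesenchyme replicates 1 and 2 (−0.36 to −0.29, adjusted p 0.0541 to 0.122). For Msmo1 it was any of 9 libraries, through the SMG difference (0.20 to 0.26, adjusted p 0.0825 to 0.182). That difference missed the threshold also with median-ratio factors (adjusted p = 0.0811), DESeq2 (0.105), the stricter filter (0.0547) and the share subtracted (0.0618). Without the low-count filter the PG differences of Fdps, Nsdhl, Dhcr7 and Srebf2 missed it too (−0.49 to −0.23, adjusted p 0.0629 to 0.138). No sign changed in any of these fits.

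Because these genes moved together, their promoters are shown for 4 members: the first committed enzyme, 2 switch genes of the demethylation steps and the regulator. Each window holds 300 bases around a transcription start in RefSeq (GRCm38.p6) and is written 5′ to 3′ on the gene's strand. Capitals mark CCAAT (the letters bound by the factor NF-Y, which acts beside SREBP at sterol genes) on either strand and the 9-letter run TCACNCCAC, a form of the sterol regulatory element, on either strand.
Hmgcs1, chr13:119690101-119690400, plus strand: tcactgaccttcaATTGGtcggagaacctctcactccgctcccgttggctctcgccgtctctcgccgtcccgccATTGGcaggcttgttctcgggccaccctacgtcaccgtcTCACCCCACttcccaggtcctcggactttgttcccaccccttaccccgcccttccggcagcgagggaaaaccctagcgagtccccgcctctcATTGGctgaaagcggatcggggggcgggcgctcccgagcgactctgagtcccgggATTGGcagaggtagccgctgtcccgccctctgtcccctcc
Msmo1, chr8:64733529-64733828, minus strand: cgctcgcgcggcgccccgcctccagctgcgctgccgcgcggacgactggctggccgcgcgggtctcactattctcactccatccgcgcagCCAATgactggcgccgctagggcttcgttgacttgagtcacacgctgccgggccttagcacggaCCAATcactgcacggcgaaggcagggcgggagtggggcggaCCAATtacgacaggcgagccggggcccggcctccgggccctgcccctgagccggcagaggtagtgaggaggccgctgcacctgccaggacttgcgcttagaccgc
Nsdhl, chrX:72918271-72918570, plus strand: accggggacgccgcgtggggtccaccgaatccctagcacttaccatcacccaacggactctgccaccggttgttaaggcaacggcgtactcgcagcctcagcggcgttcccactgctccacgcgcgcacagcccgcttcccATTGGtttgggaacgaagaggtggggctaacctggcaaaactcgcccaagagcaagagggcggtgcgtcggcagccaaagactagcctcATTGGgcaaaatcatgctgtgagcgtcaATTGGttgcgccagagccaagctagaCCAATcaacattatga
Srebf2, chr15:82147019-82147318, plus strand: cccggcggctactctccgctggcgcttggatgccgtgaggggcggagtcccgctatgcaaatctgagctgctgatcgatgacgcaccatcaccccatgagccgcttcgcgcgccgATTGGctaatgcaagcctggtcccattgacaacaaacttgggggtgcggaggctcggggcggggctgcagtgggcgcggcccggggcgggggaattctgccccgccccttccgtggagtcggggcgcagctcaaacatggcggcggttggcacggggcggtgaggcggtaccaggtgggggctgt
Of the 24 list genes, 16 had a window, and all 16 held CCAAT in at least 1 window, against 41.1% of 27025 genes with a window and 42.2% of the 12468 of them that were tested. TCACNCCAC was found in 1 of the 16, Hmgcs1, against 1.44% of all genes. The shorter TCACNCCA was in 3 (4.97% of all genes and 4.6% of those tested) and the E-box form TCACGTG in 3 (4.29 and 6.45%). A further run, CACCTG, was in 4 (22.6 and 21.8%), which is near the background. A match here is a run of letters, and no binding was measured.

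Glycolytic genes were called mostly in the same direction. Of 29 genes for glycolysis and the hypoxia response, 12 were called lower and 2 higher (median −0.486), against 8.32% lower and 5.97% higher of all genes tested (median −0.0168), so the higher count lay near the background. With the other layer's share subtracted the counts were 10 and 2. Of the 12 lower calls, 6 were made without each library in turn. Ldha, which makes lactate, had 1650, 1630, 1330 and 1570 CPM in SMG epithelium and 506, 482, 448 and 565 CPM in SMG mesenchyme. In PG it had 1090, 1370 and 1020 CPM in the epithelium and 903, 1440, 933 and 1130 CPM in the mesenchyme. The layers were clearly apart in SMG and overlapped in PG, with an interaction of −1.55 ± 0.21 (adjusted p = 0.000145). Eno1 had −0.64 ± 0.13 (adjusted p = 0.00407). Pgk1 had −0.72 ± 0.21 (adjusted p = 0.0284), and its call was lost without any of 9 libraries (−0.70 to −0.63, adjusted p 0.05 to 0.104). The 2 higher genes were Slc2a3, described above, and Pfkp, a phosphofructokinase (1.9 ± 0.34, adjusted p = 0.00163).

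Epithelial markers shifted towards the mesenchyme in PG, and the shares of the other layer moved with them. Of the 43 epithelial identity genes 32 were called lower and 0 higher (8.32 and 5.97% of all genes), with a median of −3.90, while all 43 were epithelial in both glands. Summed over the list, SMG mesenchyme held 160 to 220 CPM and PG mesenchyme 372 to 1560 CPM, against 9420 to 10500 CPM in SMG epithelium and 6610 to 10200 CPM in PG epithelium. Ap1m2, the epithelial clathrin adaptor subunit, had 94.4 to 101 CPM in SMG epithelium and 97.6 to 108 CPM in PG epithelium. In the mesenchyme it had 0 to 0.0838 CPM in SMG and 18.2, 3.07, 2.62 and 4.60 CPM in PG, the highest value being in the library with the highest epithelial share. Its interaction was −7.22 ± 1.17 (adjusted p = 0.0012), and it was not called with the share subtracted (adjusted p = 0.165). After that subtraction 4 of the 43 were called lower and 1 higher (median −0.604). The same list set the share, so this fall follows in part from how the subtraction was made. Keratins gave 9 lower of 18 and 2 after subtraction, and periderm and surface epithelium genes 11 lower of 22 and 5 after subtraction. Whether the epithelial signal came from epithelial cells carried into PG mesenchyme or from low transcription in mesenchymal cells was not tested, and fewer cells of a type cannot be told apart from less RNA per cell in bulk samples. Of the 38 mesenchymal identity genes 2 were called in each direction (median 0.303). Of 41 regulators of the salivary bud, 14 were called lower and 4 higher (median −0.772), and 9 and 10 with the share subtracted.

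**Figure D3:**
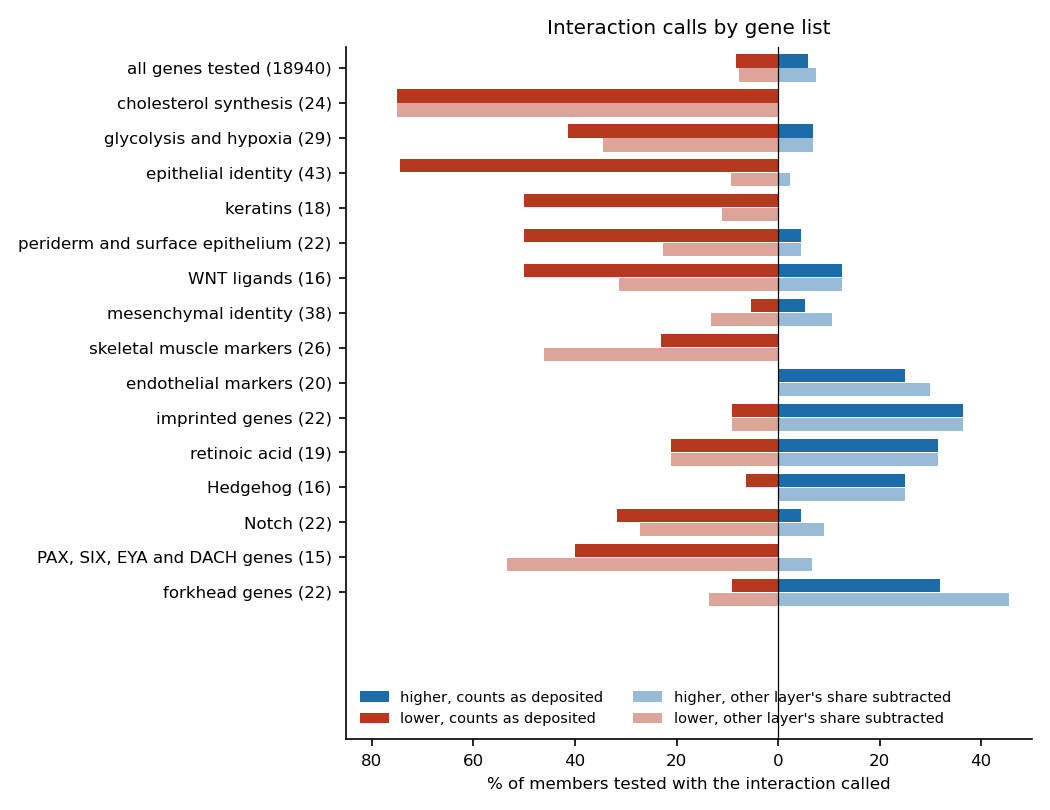
Share of the tested members of 16 gene sets (number tested in brackets; the first is all genes) with the interaction called lower (left) or higher (right), from the counts as deposited (dark) and with the other layer's share subtracted (light). The cholesterol list kept 18 of 24 lower calls under subtraction, and the epithelial identity list went from 32 to 4 of 43.

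WNT ligands were split. Of 16 tested, 8 were called lower and 2 higher, against 8.32 and 5.97% of all genes, and 5 and 2 with the share subtracted. Wnt4, an epithelial ligand here, had 136 to 168 CPM in SMG epithelium and 77.6, 193 and 224 CPM in PG epithelium. It had 0.121 to 0.691 CPM in SMG mesenchyme but 32.2, 25, 14.1 and 21.3 CPM in PG mesenchyme, so all 4 PG libraries lay above SMG. The interaction of Wnt4 was −5.71 ± 0.58 (adjusted p = 3.19e-05), and it was called also with the share subtracted (adjusted p = 0.00141). Wnt6 gave −5.32 ± 0.73 (adjusted p = 0.000366), and was not called under subtraction (adjusted p = 0.0616). In the other direction Wnt2b, confined to SMG mesenchyme, gave 4.42 ± 0.74 (adjusted p = 0.000913), and was called under subtraction (adjusted p = 0.000234). Among secreted antagonists Sfrp1 shifted to the epithelium in PG (2.04 ± 0.30, adjusted p = 0.000435) and Dkk1 to the mesenchyme (−6.36 ± 1.08, adjusted p = 0.00128, and 0.000461 under subtraction).

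Other signalling lists were described from their ligands to their targets, and their counts stand against 5.97% higher and 8.32% lower of all genes tested. In the Hedgehog list 4 of 16 genes were called higher and 1 lower, among them Gas1, a coreceptor (2.36 ± 0.38, adjusted p = 0.00098). In the Notch list 7 of 22 were lower and 1 higher: the ligand Jag1 gave −2.24 ± 0.28 (adjusted p = 8.59e-05), and Heyl, a Notch target of vessel walls, 2.27 ± 0.49 (adjusted p = 0.00584). Of 19 retinoic acid genes, 6 were higher and 4 lower. Rdh10, which makes retinaldehyde, gave 3.22 ± 0.49 (adjusted p = 0.000668). The degrading enzymes went opposite ways, with Cyp26a1 at 3.86 ± 0.59 (adjusted p = 0.000683) and Cyp26b1 at −3.38 ± 0.56 (adjusted p = 0.000911), and both were called under subtraction (adjusted p = 4.3e-06 and 1.01e-05). Of 17 FGF ligands 1 was called higher and 2 lower, which is near the background, as is the 1 lower Hedgehog gene. Fgf9, an epithelial ligand, gave −3.38 ± 0.40 (adjusted p = 7.15e-05), whereas Fgf10, the main mesenchymal ligand for budding, was not called (2.34 ± 1.17, adjusted p = 0.224) except without PG mesenchyme replicate 1 (3.04, adjusted p = 0.0407). Slit2, a repellent guidance ligand, was near 50 CPM in 8 SMG libraries (44.8 to 60.0) and 31.7 to 34.4 CPM in PG epithelium, and PG mesenchyme had 364, 212, 298 and 290 CPM. No layer difference was called in SMG (−0.09, adjusted p = 0.576), and the interaction was −3.03 ± 0.20 (adjusted p = 2.68e-07).

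Patterning and imprinted genes followed no single direction, and their counts stand against the same 5.97 and 8.32%. In the list of paired-box, sine oculis, Eya and Dach genes 6 of 15 were called lower and 0 higher, and all 6 calls were made without each library in turn. The homeobox gene Six2 went from an epithelial gene in SMG (3.82) to one with no layer call in PG (0.30, adjusted p = 0.537), with an interaction of −3.52 ± 0.53 (adjusted p = 0.000636). Dlx2, a proximal jaw factor, gave 5.11 ± 1.05 (adjusted p = 0.00601), and was called under subtraction (adjusted p = 0.00313). Of 22 forkhead genes 7 were higher and 2 lower, but 2 of the 7 higher calls were made without each library in turn. Imprinted genes had 8 higher and 2 lower of 22, the lower count near the background, and all 8 higher calls were made without each library in turn. The placental growth restrainer Phlda2 gave 4.58 ± 0.43 (adjusted p = 7.73e-06) and the retroelement-derived Peg10 −2.88 ± 0.47 (adjusted p = 0.00094), −4.71 under subtraction.

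Markers of other cell types that a dissected layer can hold were measured alongside. The skeletal muscle list summed to 1730 to 3460 CPM in PG mesenchyme, 88.2 to 383 CPM in SMG mesenchyme and at most 81.6 CPM in any epithelial library. Of its 26 genes 6 were called lower in the interaction and 0 higher, against 8.32 and 5.97% of all genes tested. With the share subtracted 12 were lower. Endothelial markers summed to 710 to 841 CPM in PG mesenchyme and 912 to 1210 CPM in SMG mesenchyme. They summed to 36.1 to 81.2 CPM in PG epithelium and 17.6 to 27.4 CPM in SMG epithelium. Of the 20 genes 5 were called higher in the interaction and 0 lower (median 2.49). Without PG epithelium replicate 2 and PG mesenchyme replicate 1 the counts were 5 and 1 (median 0.36). With the share subtracted they were 6 and 0 (median 4.12). Between glands 6 of the 20 genes were called higher in PG than SMG epithelium and 1 lower in PG than SMG mesenchyme (7.07 and 9.43% of all genes). Summed neuron markers were 294 to 477 CPM in SMG mesenchyme and 325 to 1090 CPM in PG mesenchyme. They were 179 to 236 CPM in SMG epithelium and 53.3, 63.4 and 400 CPM in PG epithelium, the last within the mesenchymal range. Of the 24 neuron genes tested 3 were called higher in the interaction and 3 lower. Macrophage and erythroid lists had 0 calls in either direction of 20 and 17 genes, which is near the shares over all genes. Without PG epithelium replicate 2 and PG mesenchyme replicate 1, 3 neuron genes were higher and 6 lower. In the same fit 0 macrophage genes were higher and 3 lower. Sox10, which marks neural crest and glial cells and is also expressed in salivary epithelium, had 131, 72.4 and 81.8 CPM in PG epithelium and 16, 7.07, 6.62 and 12.1 CPM in PG mesenchyme. In SMG it was at 26.9 to 40.3 CPM in the epithelium and 18.4 to 50.9 CPM in the mesenchyme, with no layer call (0.15, adjusted p = 0.749). The interaction of Sox10 was 3.03 ± 0.52 (adjusted p = 0.0016). Cell counts per layer were not measured, and the part of these cells in other results was not tested.

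Confined genes were those higher in a group than in each of the other 3, with a mean of at least 5 CPM, no other group above 1/10 of that mean and no overlap of libraries. There were 17 in SMG epithelium (0.0898% of genes tested), 34 in SMG mesenchyme (0.18%), 13 in PG epithelium (0.0686%) and 98 in PG mesenchyme (0.517%). The interaction is a ratio of ratios, so a gene can be confined to one group and have no interaction call where its other 3 levels are also unequal. It was called in 17 of 17, 28 of 34, 5 of 13 and 32 of 98 of them, which are 0.0898, 0.148, 0.0264 and 0.169% of the genes tested. Leaving out each of the 15 libraries in turn, 13, 26, 6 and 71 were confined every time. Without PG epithelium replicate 2 and PG mesenchyme replicate 1, 17, 32, 9 and 79 of them were still confined.

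SMG epithelium held forkhead and homeobox factors at more than 10 times their level in the other groups. Foxe1, a forkhead factor of thyroid and oral epithelium (chr4:46343609-46346412), had 413, 352, 354 and 395 CPM in SMG epithelium. PG epithelium had 11.5, 34.8 and 23.8 CPM, SMG mesenchyme 0.0806 to 0.884 CPM and PG mesenchyme 6.63, 1.05, 0.75 and 0.823 CPM. The interaction was −6.07 ± 1.00 (adjusted p = 0.00152), and the adjusted p was 0.0208 with the share subtracted. Gm12446, an antisense RNA that overlaps Foxe1, was confined too (59.3 ± 10.9 CPM, mean ± SD, n = 4), and reads of the 2 cannot be told apart. Foxa1, a forkhead factor of endodermal and glandular epithelia (chr12:57540628-57546916), had 94.6, 126, 111 and 113 CPM in SMG epithelium and at most 1.26 CPM in any other library. Its interaction was −6.17 ± 1.00 (adjusted p = 0.000792), and the adjusted p was 0.00166 with the share subtracted. Tlx1, a homeobox factor needed for the spleen (chr19:45150680-45156943), had 127, 133, 109 and 120 CPM there, 1.42 to 3.27 CPM in SMG mesenchyme and at most 1.94 CPM in PG (−5.73 ± 0.59, adjusted p = 2.58e-05).

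Further genes of SMG epithelium were Isl2, a LIM homeobox factor (54.4 ± 4.77 CPM, n = 4, against 4.36 ± 3.55 CPM, n = 3, in PG epithelium), and Kazald1, a secreted protein that binds growth factors (17.2 ± 2.78 CPM against at most a mean of 0.687 CPM). Cldn10, a tight junction protein, had 39.4 ± 9.24 CPM against 3.27 ± 1.19 CPM in PG epithelium. Agr2, a disulfide isomerase of secretory epithelia, had 6.88 ± 1.46 CPM and no count in SMG mesenchyme, at least 224-fold higher against a floor of 3 counts over that group. The next highest group was PG epithelium for 13 of the 17 genes. Isl2 missed the limit without PG epithelium replicate 3, and the other 3 did not miss it without any single library.

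SMG mesenchyme had confined transcription factors and oxidases. Nr5a2, a nuclear receptor (chr1:136842571-136960448), had 116, 115, 133 and 70.1 CPM in SMG mesenchyme and at most 0.916 CPM in any other library. Its interaction was 5.33 ± 1.43 (adjusted p = 0.0234). Without PG epithelium replicate 2 the interaction was 3.04 (adjusted p = 0.635), and it was called under subtraction (adjusted p = 0.00124). PG held at most 0.75 CPM in any library. Nr5a2 stayed confined without any single library. The forkhead gene Foxc2 (27.1 ± 3.43 CPM against a highest other mean of 1.02 CPM) and Klf14, a zinc finger gene (45.8 ± 7.59 CPM against 1.47 CPM), were also confined. The xenobiotic and retinoid oxidases Cyp1b1 (142 ± 40.5 CPM against 11.6 CPM) and Cyp2s1 (52.8 ± 16.2 CPM against 3.97 CPM) and the oxygenase Fmo1 (43.5 ± 9.78 CPM against 3.29 CPM) were 3 more. Fmo1 lost its place without PG epithelium replicate 1.

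**Figure D4:**
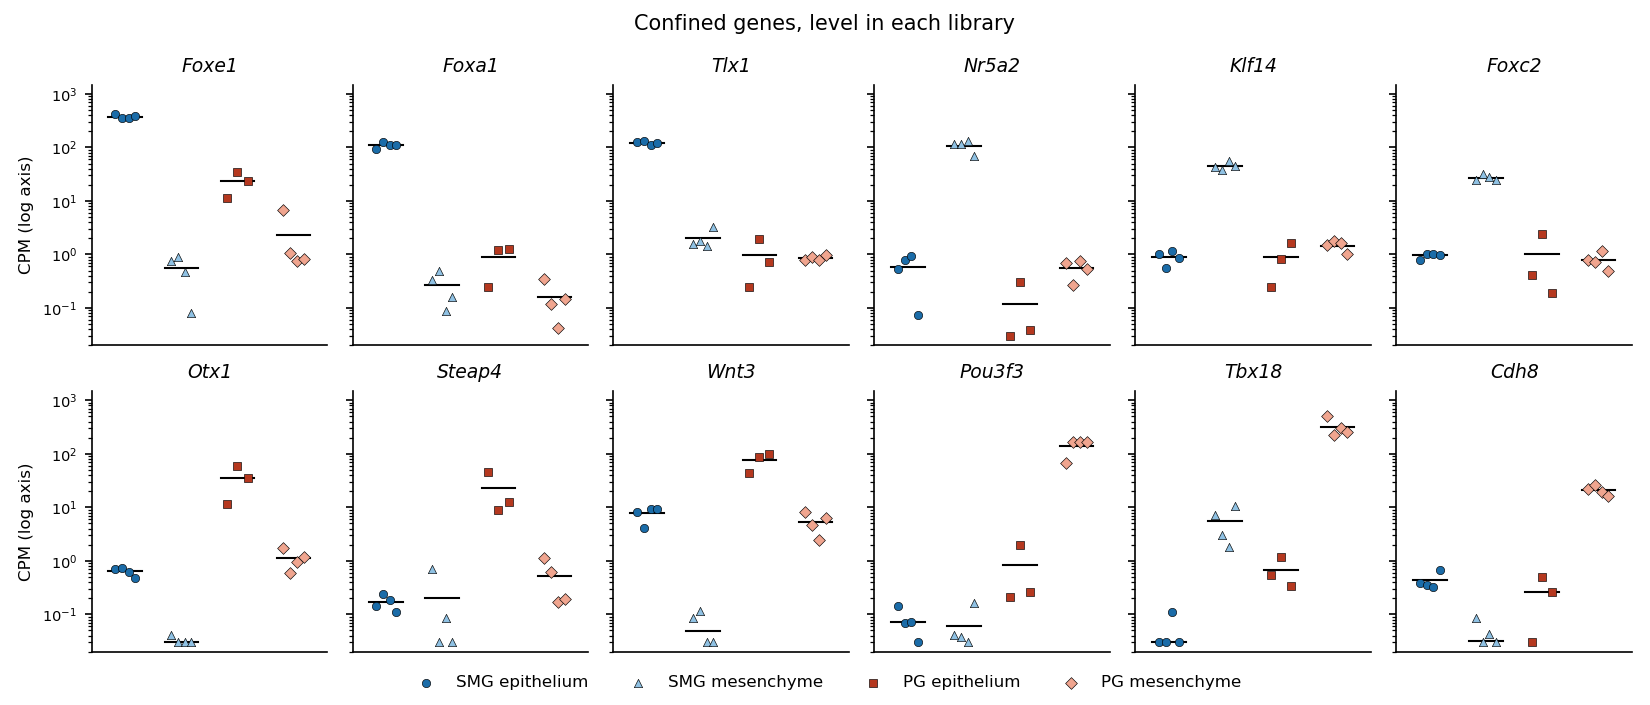
CPM of 12 confined genes in each of the 15 libraries (points, log axis) with the group mean (bar), 3 genes per group in the order SMG epithelium, SMG mesenchyme, PG epithelium, PG mesenchyme. Values below 0.03 CPM, including 0, are drawn at 0.03, and in each panel the 4 or 3 libraries of one group lie above all others.

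PG epithelium had the fewest confined genes. Otx1, a homeobox factor of rostral ectoderm and brain (chr11:21994764-22002897), had 11.4, 60.0 and 35.1 CPM in PG epithelium, 0.583 to 1.76 CPM in PG mesenchyme and 0.48 to 0.729 CPM in SMG epithelium. SMG mesenchyme had 1 count in all. The ratio between layers was therefore large in both glands, and the interaction was not called (−0.41, adjusted p = 0.805) and its sign cannot be read (0.06 without PG epithelium replicate 1). Steap4, a metalloreductase of the cell surface (chr5:7960457-7982213), had 46.1, 8.78 and 12.8 CPM and at most 1.14 CPM in any other library. Its interaction was 5.58 ± 1.49 (adjusted p = 0.0221), called also under subtraction (adjusted p = 0.0035), and 2.94 (adjusted p = 0.528) without SMG mesenchyme replicate 1. Wnt3, a canonical WNT ligand (chr11:103774150-103817957), had 43.4, 88.7 and 99.7 CPM in PG epithelium, against 4.17 to 9.49 CPM in SMG epithelium and 2.5 to 8.07 CPM in PG mesenchyme. Its mean was just over 10 times the next one, and it was no longer confined without any of 5 libraries (SMG epithelium replicate 2, SMG mesenchyme replicate 4, PG epithelium replicate 2 or 3, PG mesenchyme replicate 2). Its interaction of −3.26 ± 0.91 (adjusted p = 0.0273) was not called with the share subtracted (adjusted p = 0.629). It was −3.12 to −2.88 (adjusted p 0.0508 to 0.0679) without SMG epithelium replicate 4 or SMG mesenchyme replicate 3 or 4. The canonical ligands Wnt3a (12.3 ± 9.35 CPM, n = 3) and Wnt7a (9.67 ± 8.72 CPM, n = 3) were confined too, but not without PG epithelium replicate 2, nor was Wnt3a without PG mesenchyme replicate 1. The adenylyl cyclase Adcy8 was confined with 25.8 ± 7.78 CPM (n = 3) against 1.54 ± 0.664 CPM (n = 4) in SMG epithelium.

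PG mesenchyme had the most confined genes, and 17 of the 98 were on the skeletal muscle list, against 26 of the 18940 genes tested. That list does not hold every muscle gene, so 17 is not the full number of muscle genes among the 98. Neb, Mybpc1, Mybph, Myom2, Myom3 and Smyd1 are examples of confined muscle genes. Actc1, the cardiac actin also used by embryonic muscle, had 568 ± 185 CPM (n = 4) against 34.9 ± 33.0 CPM (n = 4) in SMG mesenchyme. Myh3, embryonic myosin, had 237 ± 105 CPM against 7.74 ± 7.03 CPM. In the gland comparison of the mesenchymes 25 of the 26 muscle-list genes were called, all higher in PG, against 15.3% of all genes tested. Their summed levels are given above. Outside muscle, Pou3f3, a POU factor of the proximal jaw (chr1:42695768-42703176), had 67.7, 167, 166 and 167 CPM in PG mesenchyme and at most 1.98 CPM in any other library, with 0 to 0.161 CPM in SMG. Its interaction of −7.63 ± 2.25 (adjusted p = 0.0379) was not called without any one of 6 SMG libraries (epithelium replicate 1, 2 or 3, mesenchyme replicate 1, 2 or 3), at −7.65 to −7.10 (adjusted p 0.0607 to 0.166). It was called with the share subtracted (adjusted p = 0.00035). Pantr1, the long noncoding RNA beside it, was confined with 281 ± 130 CPM (n = 4).

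Other confined genes of PG mesenchyme included T-box and homeobox factors, named by the rule or after their values were seen. Tbx18, a T-box repressor of mesenchyme (chr9:87702800-87731260), had 499, 227, 303 and 253 CPM in PG mesenchyme, 7.33, 3.03, 1.81 and 10.5 CPM in SMG mesenchyme and at most 1.17 CPM in the epithelia. It was mesenchymal in both glands and no interaction was called (−1.39, adjusted p = 0.838, and 1.29 without SMG epithelium replicate 3). SMG epithelium had 3 counts in all, so the size of the SMG layer difference is poorly known (CPM ratio 210, 95% counting interval 71.6 to 1020). Its mesenchymal level was higher in PG by 5.82 on the log2 scale (adjusted p = 6.19e-06). Tbx15 (220 ± 67.1 CPM against 4.85 ± 2.89 CPM in SMG mesenchyme), Shox2 (220 ± 28.6 against 14.1 ± 6.22 CPM), Meox2 (160 ± 33.8 against 5.37 ± 1.39 CPM) and Msx1 (196 ± 112 CPM against 6.77 ± 9.84 CPM in PG epithelium) were confined too. The interaction of Shox2, Meox2, Msx1 and Kera was not called, but without PG epithelium replicate 2 it was (−4.30, −3.58, −4.28 and −4.42, adjusted p = 0.00211, 0.018, 0.014 and 0.0238). Kera, the proteoglycan keratocan of connective tissue, had 263 ± 26.4 CPM against 14.8 ± 4.31 CPM in SMG mesenchyme. Lhx2, a LIM homeobox factor, had 8.88 ± 1.96 CPM and an interaction of −4.10 ± 0.74 (adjusted p = 0.00156). Bmp3, an inhibitory BMP ligand, had 43.7 ± 5.13 CPM and an interaction of −4.73 ± 1.03 (adjusted p = 0.0075), or −8.69 without PG epithelium replicate 2. Cdh8, described with the switch genes, was confined here as well. These genes stayed confined without any single library.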

How the data were processed

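RNA-seq libraries were made from separated epithelium and mesenchyme of ICR mouse embryos with SMART-Seq v4 and Nextera XT, a protocol that does not mark the strand, per the labels' protocols. The authors deposited whole-number read counts per gene for all 15 libraries. STAR 2.5.2a and the GRCm38.p3 and mm10 builds are named in the submitters' processing notes, while for the counting step and the gene annotation the sources used here give no tool or release. Reads of overlapping genes therefore cannot be assigned with certainty. Symbols were found for 48349 of 48709 gene identifiers, and coordinates were taken from GENCODE for GRCm38.

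All 4 groups entered 1 model in edgeR 4.0.16 (R 4.3.3; filterByExpr, TMM factors, robust quasi-likelihood test), which tested 18940 genes, with Benjamini-Hochberg adjustment over all of them and a threshold of 0.05. The biological coefficient of variation was 0.227. CPM used TMM-scaled totals. The edgeR fit of the interaction was run on simulated counts in which the effect was placed in PG epithelium alone. All libraries of a group had the same expected levels there, so no library held an excess share of the other layer. That run does not show how the fit behaves with such libraries. Ratios of low counts carry 95% intervals for counting error only, and PCR copies are not independent molecules.

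The genes examined and the 51 gene lists were chosen with earlier results of these data known. Genes were named by rule: the 12 switch genes of each direction with the largest smaller layer difference (at least 5 CPM), the 8 largest interactions of each direction (at least 20 CPM), the 8 most confined genes of each group, and up to 2 calls of each direction from each list. The other named genes were picked after their values were seen, and some genes that the rule selects are not reported here.

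Alternatives were median-ratio factors, DESeq2 1.42.0, 2 other filters, replicate blocks, leaving out libraries, and counts from which each library's share of the other layer's mean profile was subtracted. Leaving out 3 libraries together was chosen after seeing the data.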

Additional observations from a re-analysis of the deposited data

Results flagged for a closer look

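Single libraries stood apart from the rest of their group in 12 of 102 group tests, where chance gives about 1 in 20 in independent tests. These tests shared libraries, and some genes were picked after their values were seen, so that rate is only a rough guide. The share of the other layer was 5.22% in SMG epithelium replicate 3 (1.30 to 1.58% in the others) and 17.5% in PG mesenchyme replicate 1 (3.19 to 4.09%). The latter library also had the highest level of the epithelial genes Ap1m2 (18.2 CPM against 2.62 to 4.60) and Foxe1 (6.63 CPM against 0.75 to 1.05), and the lowest of Pou3f3 (67.7 CPM against 166 to 167). In SMG mesenchyme, replicate 4 stood apart for Eya1 (9.88 CPM against 4.61 to 4.98) and Zmat4 (24.2 CPM against 35.0 to 37.1). Replicate 3 stood apart for Foxp2 (86.0 CPM against 97.1 to 98.0), and replicate 1 for Steap4 (0.712 CPM against at most 0.0862). Replicate 1 was flagged also for Otx1 (0.0419 CPM against 0), which had 1 count in the whole group. Msx2 was high in PG mesenchyme replicate 4 (4.84 CPM against 0.466 to 1.18). Near the limit of detection, Tbx18 had 0.11 CPM in SMG epithelium replicate 3, with 0 in the other libraries of that group.

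The layer difference differed between the glands, by edgeR's test of the interaction, for 1130 genes in the higher and 1575 in the lower direction. Among the switch genes described above, the log2 interaction was −13.39 for Pax1, −9.91 for Cdh8, −9.21 for Dmrt2, −6.61 for Dok5, −5.48 for Dpyd and −5.33 for Hpgd. It was −3.70 for Ddc, −2.93 for Eya1 and −0.67 for Nsdhl. In the other direction it was 9.84 for Acan, 5.84 for Msx2, 5.53 for Gata2, 4.62 for Gpm6b, 4.53 for Zmat4 and 4.25 for Rhbdl3. It was 3.61 for Col12a1, 3.36 for Slc2a3 and 3.13 for Foxp2.

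Outside the genes, the ERCC spike-in rows held 371 to 1314 counts per library, at most 0.00537% of a library.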

How the results depend on the processing

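Interaction calls (1130 higher, 1575 lower) were 1215 and 1474 with median-ratio factors, 1563 and 1811 with DESeq2, 1012 and 1210 without the low-count filter, and 1144 and 1543 with the stricter one. They were 1222 and 1587 without PG epithelium replicate 2 and PG mesenchyme replicate 1, 1212 and 1411 without SMG epithelium replicate 3 as well, and 1409 and 1448 with the other layer's share subtracted. Leaving out 1 library gave 930 to 1246 higher and 1188 to 1559 lower calls. Without PG epithelium replicate 1 the lower calls no longer outnumbered the higher ones (1216 higher, 1191 lower). An absolute log2 value of at least 1 left 972 lower calls. Switch genes numbered 86 to 121 (epithelial in PG) and 128 to 174 (mesenchymal in PG) without 1 library, and 51 and 58 at an absolute log2 of at least 1 in each gland.

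Confined genes in SMG epithelium, SMG mesenchyme, PG epithelium and PG mesenchyme numbered 36, 60, 39 and 192 with the other groups at most 1/5, and 5, 14, 4 and 45 at 1/20. They numbered 29, 53, 25 and 166 at a mean of at least 1 CPM, and 9, 19, 6 and 51 at 20 CPM. Without 1 library they ranged from 15 to 19, 32 to 38, 11 to 20 and 86 to 120, the 20 coming without PG epithelium replicate 1.

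Among the named genes, 4 with no interaction call changed sign when a library was left out. Otx1 ranged from −2.03 to 0.06, Wnt7a from −2.68 to 2.18, Tbx15 from −5.04 to 0.76 (−5.21 without PG epithelium replicate 2 and PG mesenchyme replicate 1 together) and Tbx18 from −2.01 to 1.29 (0.99 without the 3 libraries). With the share subtracted Otx1 (7.42, SE 3.55, adjusted p = 0.199), Adcy8 (1.97, SE 2.40, adjusted p = 0.659) and Epcam (0.55, SE 1.19) had the other sign but no call, so no reversal can be read. Epcam had been called, at −3.19. Actc1 (−4.14) had 0 counts left in both epithelia, so this value is no estimate. The cause was not tested.

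Same-numbered layers of a gland deviated together at correlations of 0.0136 to 0.283 in SMG and −0.124 to 0.0721 in PG, against −0.175 to 0.0294 for differently numbered SMG layers. Of the 4 SMG pairs 3 were above 0.1, but not replicate 1 nor any PG pair, so the numbers were not taken to pair the samples, and not every library correlated best with its own number. With a replicate block within the gland there were 789 higher and 1190 lower calls and 98 and 152 switch genes, and the interaction of Foxe1, Nr5a2, Steap4, Pou3f3, Esrp1, Epcam and Wnt3 was not called (adjusted p = 0.0508, 0.0721, 0.0645, 0.0582, 0.0526, 0.0844 and 0.17). With a replicate block across glands there were 1020 and 1469 calls and 98 and 155 switch genes, and Wnt3 was not called (adjusted p = 0.0789). Confined genes were not counted under the block within the gland, which is nested in the gland comparison. Levels under about 3 counts in a group limit the smallest values given.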
